A study of Mus musculus with 12 samples.

Results

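The 9 genes described here encode enzymes that make serine and glycine and that carry their carbon on folate. They are Phgdh, Psat1, Psph, Shmt1, Shmt2, Mthfd1, Mthfd2, Mthfd1l and Aldh1l2, chosen by name from a table of 32721 genes, and all 9 passed the filter on low values among the 14279 genes tested. RNA was sequenced from mouse embryonic fibroblasts (MEFs), connective tissue cells grown from embryos, in 4 groups of 3 libraries: Vps15KO cells after 2 h in EBSS, WT cells after 2 h in EBSS, Vps15KO cells in basal medium and WT cells in basal medium. All cells carried floxed Vps15 alleles (Vps15f/f) and had been transduced 5 days before sampling. Vps15KO cells had received adeno-CRE, which carries the recombinase that cuts out floxed DNA, and WT cells adeno-GFP. The loss of Vps15 and the presence of the recombinase therefore cannot be told apart. The library names of all 4 groups also hold the word pLEX, which no label explains. Pik3r4 encodes Vps15, which regulates the class 3 PI3K, the kinase that makes the lipid PI3P for autophagy and endosomes. The basal medium was DMEM with high glucose and serum. EBSS is a salt solution without amino acids, and serum and the amount of glucose also differ between such media. No label says whether the replicates came from separate cultures, so that the p-values measure the spread between these libraries, which may be technical.

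In these pathways PHGDH, PSAT1 and PSPH act in turn to make serine from a glycolytic intermediate. The serine hydroxymethyltransferases, SHMT1 in the cytosol and SHMT2 in mitochondria, split serine into glycine and a carbon unit bound to tetrahydrofolate. MTHFD2 and MTHFD1L carry that unit through to formate in mitochondria, MTHFD1 takes formate back onto folate in the cytosol, and ALDH1L2 burns the mitochondrial unit to carbon dioxide while making NADPH. The carbon units feed the synthesis of purines and thymidylate and the methylation of homocysteine, and several of the genes are known targets of ATF4, the transcription factor of the amino acid and mitochondrial stress response.

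Reads in genes numbered 21278921 to 21698584 per library. Pik3r4, the targeted gene, had normalized counts of 632 ± 35.9 in Vps15KO and 895 ± 62.7 in WT cells in EBSS, and of 658 ± 36.7 in Vps15KO and 875 ± 10.3 in WT cells in basal medium (SD, n = 3 each). It was called lower in Vps15KO cells in both media (limma, log2 difference -0.48 ± 0.07 in EBSS and -0.40 ± 0.07 in basal medium, adjusted p = 1.03e-05 and 8.41e-05) but lay well above 0, and the part of the gene that is deleted is not given. In read counts WT basal replicate 2 stood apart from the other WT basal libraries (chi-square per gene 20.04 and 19.09, against 3.03 between those libraries), and so, less far, did WT EBSS replicate 1 (7.73 and 11.1 against 3.65). Of 10 fibroblast markers 9 were detected and Thy1 averaged under 3 counts in every group. Their summed level was 276886 to 290160 in Vps15KO and 483088 to 520443 in WT cells in EBSS, and 276953 to 280307 in Vps15KO and 543334 to 569954 in WT cells in basal medium. The lower sums in Vps15KO cells came mainly from Col1a1, Col1a2, Col3a1 and Vim, and fewer cells of a type and less RNA per cell cannot be told apart in bulk RNA. Of 8 macrophage markers Ptprc, Adgre1 and Tyrobp were at or near 0 in all groups, while Cd14 averaged 47 to 97.8 normalized counts, and the sum was 65.1 to 115. The summed endothelial and epithelial markers each stayed at or under 31.6. Muscle markers, nearly all from Tnnt3, summed to 722 to 826 in Vps15KO and 1298 to 1328 in WT cells in EBSS, and to 834 to 1054 in Vps15KO and 1763 to 2566 in WT cells in basal medium, with Myog at 0 in all groups. Neural markers, mainly Map2 and Sox2, summed to 977 to 1047 in Vps15KO and 1424 to 1472 in WT cells in EBSS, and to 1007 to 1123 in Vps15KO and 1052 to 1262 in WT cells in basal medium. The part of these markers in the results on the 9 enzymes was not tested.

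Phgdh and Psat1, of serine synthesis, were the most abundant. Per kilobase of exon, Phgdh had the highest level of the 9 in all 4 groups, with 3239 ± 133 in Vps15KO and 2256 ± 208 in WT cells in EBSS, and 3426 ± 68.1 in Vps15KO and 1992 ± 349 in WT cells in basal medium (normalized counts per kb, SD, n = 3 each). Psat1 came next everywhere, and in Vps15KO cells in EBSS its 3185 ± 4.62 per kb overlapped the libraries of Phgdh. Shmt2 and Mthfd2 followed, in either order, with 1635 to 2137 per kb in the Vps15KO groups and 657 to 967 in the WT groups. They overlapped one another in EBSS in both genotypes and not in basal medium. Psph held the fifth place in every group. Aldh1l2 held the sixth but in WT cells in EBSS, where its 176 per kb overlapped the libraries of Mthfd1l, ranked just above it. Shmt1, Mthfd1 and Mthfd1l stood at the low end in the other groups: Shmt1 was lowest in basal medium (145 per kb in Vps15KO and 96.5 in WT cells), and Mthfd1 was lowest in EBSS (168 per kb in Vps15KO and 127 in WT cells). Summed over the 9 genes, normalized counts were 31726 ± 611 in Vps15KO and 14932 ± 881 in WT cells in EBSS, and 29383 ± 345 in Vps15KO and 14217 ± 1563 in WT cells in basal medium.

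**Figure D1:**
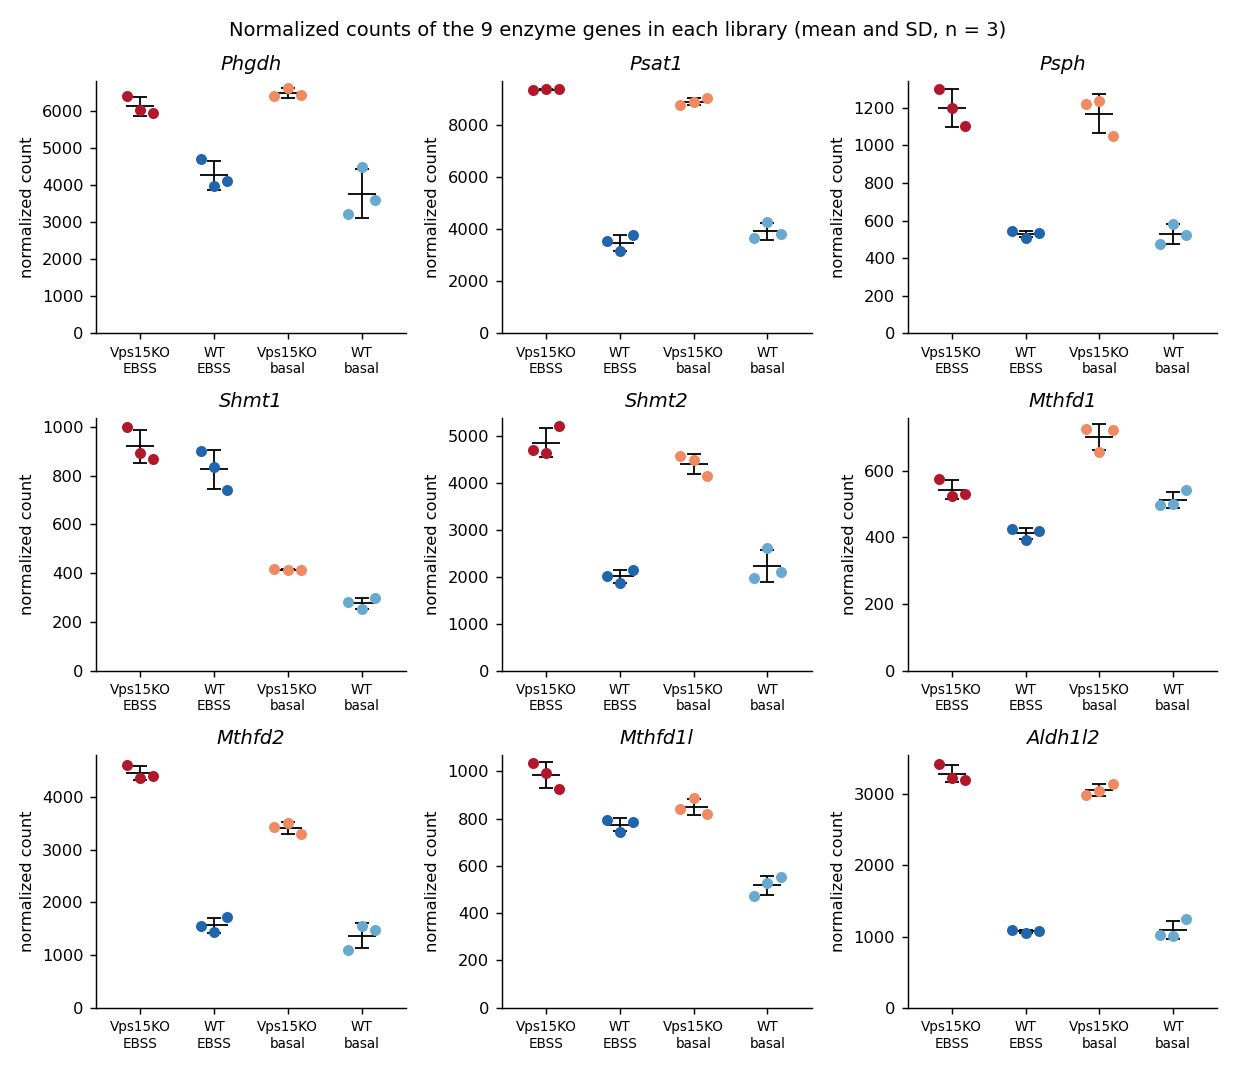
Normalized counts of each of the 9 genes in every library, on a linear axis, with the group mean and SD (n = 3) as bars. All genes but Shmt1 separate by genotype in both media, with the largest log2 differences for Aldh1l2, Mthfd2, Psat1, Psph and Shmt2. Shmt1 separates mainly by medium (870 to 999 in Vps15KO and 743 to 902 in WT cells in EBSS, 413 to 417 in Vps15KO and 252 to 296 in WT cells in basal medium).

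The first question was how loss of Vps15 changed these genes in fed cells. All 9 were higher in Vps15KO than in WT cells in basal medium, by 1.35-fold to 2.76-fold, and the mitochondrial enzymes Aldh1l2 and Mthfd2 were raised most. In the fit over all genes 9 of 9 were called higher (limma, adjusted p under 0.05, Benjamini-Hochberg). Of all genes tested 29.3% were called higher, 29.2% lower and 58.5% in either direction. The groups did not overlap for any of the 9, against 30.5% of the genes tested that were higher and 61.7% that were higher or lower without overlap. The median log2 difference of the 9 was 0.98, and that of all genes tested was -0.01.

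Among the enzymes of serine synthesis, Phgdh, which oxidises 3-phosphoglycerate and opens the pathway, had 6400, 6634 and 6425 normalized counts in Vps15KO libraries, against 3222, 4503 and 3590 in WT libraries. All Vps15KO libraries lay above all WT libraries, and WT replicate 2 was the nearest to them. The log2 difference was 0.79 ± 0.09 (SE; adjusted p = 7.53e-07), and 0.93 without WT replicate 2. Psat1, the aminotransferase of the middle step, had 8766, 8872 and 9036 normalized counts in Vps15KO and 3656, 4279 and 3816 in WT libraries. Its groups lay far apart, with a log2 difference of 1.18 ± 0.07 (adjusted p = 1e-10). Psph, the phosphatase that releases serine, had 1219, 1236 and 1052 normalized counts in Vps15KO and 478, 584 and 524 in WT libraries. Its lowest Vps15KO library was well above its highest WT library, and the log2 difference was 1.11 ± 0.08 (adjusted p = 3.08e-09). The span of Psph overlaps that of Cct6a, a chaperonin subunit gene with a mean of 4660 normalized counts, and whether reads were counted by strand is not stated. Cct6a itself differed by 0.35 on the log2 scale, less than Psph.

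Both hydroxymethyltransferases were higher in fed Vps15KO cells. Shmt2, the mitochondrial enzyme, had 4563, 4493 and 4149 normalized counts in Vps15KO libraries, against 1974, 2611 and 2104 in WT libraries. Again WT replicate 2 was the highest WT library and still lay below every Vps15KO library. The log2 difference was 0.98 ± 0.09 (adjusted p = 2.2e-08). Shmt1, the cytosolic enzyme, had 417, 414 and 413 normalized counts in Vps15KO and 280, 252 and 296 in WT libraries. The Vps15KO libraries were almost equal and all were higher, with a log2 difference of 0.55 ± 0.08 (adjusted p = 1.59e-05).

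Of the folate enzymes, Aldh1l2 had 2984, 3050 and 3146 normalized counts in Vps15KO libraries, against 1024, 1014 and 1245 in WT libraries. This was the greatest separation of the 9, a log2 difference of 1.47 ± 0.07 (adjusted p = 9.32e-12). Counted with the sign, 99.1% of the genes tested had a lower log2 difference. Mthfd2, the mitochondrial dehydrogenase and cyclohydrolase, had 3436, 3500 and 3293 normalized counts in Vps15KO and 1089, 1547 and 1474 in WT libraries. Here WT replicate 1 was the low library, and the log2 difference was 1.31 ± 0.10 (adjusted p = 2.18e-09). Mthfd1l, the mitochondrial formate-tetrahydrofolate ligase, had 842, 887 and 820 normalized counts in Vps15KO and 474, 527 and 551 in WT libraries. It was higher in every Vps15KO library, by 0.69 ± 0.07 on the log2 scale (adjusted p = 1.65e-07). Mthfd1, the cytosolic enzyme with dehydrogenase, cyclohydrolase and ligase activities in 1 protein, had 725, 657 and 723 normalized counts in Vps15KO and 498, 501 and 541 in WT libraries. It had the smallest difference of the 9, 0.43 ± 0.07 (adjusted p = 4.76e-05), still without overlap of the groups. WT basal replicate 2 was the highest WT library for 5 of the 9 genes, and without it all 9 were still called higher.

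**Figure D2:**
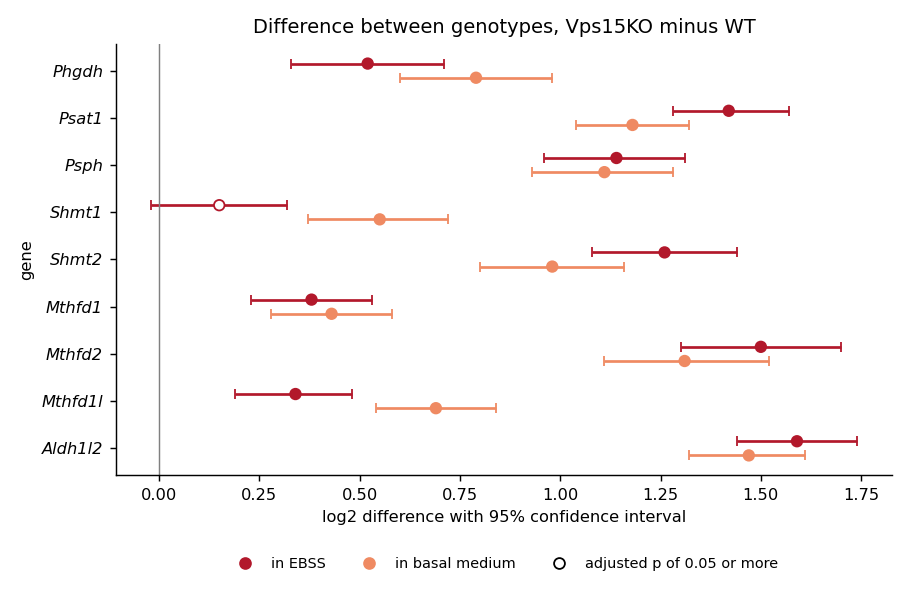
Log2 difference, Vps15KO minus WT, of each gene in EBSS and in basal medium, with 95% confidence intervals and open points for an adjusted p of 0.05 or more. All intervals lie above 0 but that of Shmt1 in EBSS, which runs from -0.02 to 0.32.

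Promoters were compared because the genes moved together between genotypes. RefSeq (build GRCm38.p6) gave a window of 250 bases before to 50 bases after the annotated start for 8 of the 9 genes. The gene without a window was Aldh1l2, which had the largest difference between genotypes in both media. The windows of the genes Psat1, Psph, Mthfd2 and Shmt2, with large differences in both media, and of Shmt1, which differed least in EBSS, are printed 5′ to 3′ on the strand of the gene. Capitals mark CCAAT or its complement on the other strand, ATTGG.
Psat1 promoter, chr19:15925010-15925309, minus strand: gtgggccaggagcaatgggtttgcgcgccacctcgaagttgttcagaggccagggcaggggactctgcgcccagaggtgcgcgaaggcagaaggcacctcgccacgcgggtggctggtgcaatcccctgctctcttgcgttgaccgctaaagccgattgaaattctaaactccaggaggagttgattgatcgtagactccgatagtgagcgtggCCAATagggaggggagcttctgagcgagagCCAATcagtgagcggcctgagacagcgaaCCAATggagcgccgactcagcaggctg
Psph promoter, chr5:129787204-129787503, minus strand: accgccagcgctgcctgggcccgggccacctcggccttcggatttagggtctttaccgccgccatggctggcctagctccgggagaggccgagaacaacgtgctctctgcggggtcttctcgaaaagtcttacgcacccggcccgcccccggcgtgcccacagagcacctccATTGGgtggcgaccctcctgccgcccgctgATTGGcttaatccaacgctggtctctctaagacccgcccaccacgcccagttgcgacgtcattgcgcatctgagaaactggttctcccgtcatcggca
Mthfd2 promoter, chr6:83317555-83317854, minus strand: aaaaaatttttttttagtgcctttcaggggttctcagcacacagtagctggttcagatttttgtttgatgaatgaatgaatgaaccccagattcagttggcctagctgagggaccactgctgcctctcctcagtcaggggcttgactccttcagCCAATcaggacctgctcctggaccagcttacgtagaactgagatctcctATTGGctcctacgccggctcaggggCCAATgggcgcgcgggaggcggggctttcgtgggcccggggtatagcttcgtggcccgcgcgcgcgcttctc
Shmt2 promoter, chr10:127522395-127522694, minus strand: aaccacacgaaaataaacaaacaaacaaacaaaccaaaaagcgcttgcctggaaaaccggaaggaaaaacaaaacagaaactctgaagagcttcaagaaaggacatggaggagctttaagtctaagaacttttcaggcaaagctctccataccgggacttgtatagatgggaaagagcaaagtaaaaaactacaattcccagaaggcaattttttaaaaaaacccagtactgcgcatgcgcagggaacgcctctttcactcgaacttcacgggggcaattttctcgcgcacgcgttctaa
Shmt1 promoter, chr11:60811216-60811515, minus strand: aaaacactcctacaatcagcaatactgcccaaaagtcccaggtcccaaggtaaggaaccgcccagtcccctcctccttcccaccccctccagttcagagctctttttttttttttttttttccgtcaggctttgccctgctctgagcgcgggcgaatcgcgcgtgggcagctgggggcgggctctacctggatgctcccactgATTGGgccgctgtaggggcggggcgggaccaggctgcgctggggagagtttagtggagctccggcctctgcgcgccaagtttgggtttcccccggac

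In these windows Psat1 and Mthfd2 held 3 copies of CCAAT each, Psph held 2 and Shmt1 held 1, counted on both strands, and Shmt2 held none. A second annotated start of Psat1, with the window chr19:15924573-15924872, had no copy. In the Psat1 window printed above the copies began at positions -36, -6 and 24 from the start, and in Mthfd2 at -96, -47 and -22. The motif was in the windows of 6 of the 8 genes (Phgdh, Psat1, Psph, Shmt1, Mthfd1 and Mthfd2), against 41.1% of 27025 genes with a promoter and 37.4% of 32851 promoters of the same length. TGATGNAA, letters of the composite element bound by ATF4 with C/EBP factors, was in none of the 8 windows on either strand. It was found in 4.51% of genes with a promoter, and in 12 of 25 other ATF4 response genes with a window, among them Asns, Chac1 and Trib3. CACGTG, the E-box, was also in none of the 8, against 8.09% of genes. TGACNNNGC, the core of the antioxidant response element, was in Phgdh and Psph, 2 of the 8, against 14% of genes. None of the 4 motifs searched contains another, a match is not a shown binding site, and no match says only that these letters are not in these windows.

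In EBSS 8 of the 9 genes were higher in Vps15KO than in WT cells, and Shmt1 was the exception. Called higher were 8 and lower none of the 9, where 29.4% of the genes tested were called higher and 57.2% in either direction. The same 8 were higher without overlap of the libraries, against 33.8% of the genes tested (66.3% in either direction), and the median log2 difference was 1.14, against 0 for all genes tested.

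For Aldh1l2 the normalized counts were 3424, 3232 and 3205 in Vps15KO libraries in EBSS, and 1093, 1045 and 1083 in WT libraries in EBSS. Replicates were tight and the groups lay 3.01-fold apart, a log2 difference of 1.59 ± 0.07 (adjusted p = 2.46e-12). Mthfd2 had 4612, 4364 and 4392 normalized counts in Vps15KO and 1542, 1429 and 1713 in WT libraries. Each Vps15KO library was far above each WT library (log2 difference 1.50 ± 0.10, adjusted p = 3.13e-10). Psat1 had 9337, 9356 and 9364 normalized counts in Vps15KO and 3532, 3145 and 3756 in WT libraries. The Vps15KO libraries hardly differed from each other, and the log2 difference was 1.42 ± 0.07 (adjusted p = 7.97e-12). Shmt2 had 4704, 4643 and 5209 normalized counts in Vps15KO and 2022, 1856 and 2141 in WT libraries, which left a wide gap and a log2 difference of 1.26 ± 0.09 (adjusted p = 6.72e-10).

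Psph showed 1301, 1197 and 1101 normalized counts in Vps15KO and 544, 510 and 534 in WT libraries in EBSS. Its log2 difference was 1.14 ± 0.08 (adjusted p = 1.85e-09), with no overlap, while Cct6a differed by 0.17. Phgdh showed 6419, 6028 and 5946 normalized counts in Vps15KO and 4717, 3969 and 4126 in WT libraries. WT EBSS replicate 1 was its highest WT library, below all Vps15KO libraries, and the log2 difference was 0.52 ± 0.09 (adjusted p = 8.45e-05). Mthfd1 showed 575, 524 and 530 normalized counts in Vps15KO and 425, 393 and 419 in WT libraries, a smaller but complete separation of 0.38 ± 0.07 (adjusted p = 0.000189). Mthfd1l showed 1036, 991 and 927 normalized counts in Vps15KO and 794, 743 and 785 in WT libraries. It was higher in each Vps15KO library, by 0.34 ± 0.07 (adjusted p = 0.000496).

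Shmt1 had 999, 892 and 870 normalized counts in Vps15KO libraries in EBSS, against 902, 837 and 743 in WT libraries in EBSS. The highest WT library lay within the range of the Vps15KO libraries. The log2 difference was 0.15 ± 0.08, with a 95% confidence interval of -0.02 to 0.32 (adjusted p = 0.126), and it passed the threshold with library weights (adjusted p = 0.0476) and without both of the WT libraries that stand apart (0.21, adjusted p = 0.0139).

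The next question was what EBSS did to the genes within each genotype. In both genotypes Shmt1 rose and Mthfd1 fell, and of the 3 genes of serine synthesis, Shmt2 and Aldh1l2, Psat1 in WT cells alone was called. In Vps15KO cells 3 of the 9 were called higher in EBSS (Shmt1, Mthfd2 and Mthfd1l) and 1 lower (Mthfd1), where 25.9% of the genes tested were called higher, 26.1% lower and 52% in either direction. Libraries did not overlap for 6 genes that were higher and 1 that was lower, against 31.1% and 31.9% of the genes tested (63% in all). In WT cells 2 of the 9 were called higher (Shmt1 and Mthfd1l) and 2 lower (Mthfd1 and Psat1), where 31.4% of the genes tested were called higher, 31.3% lower and 62.7% in either direction. There 2 genes were higher and 1 lower without overlap, against 32.7% and 32.5% of the genes tested (65.2% in all). The shares called lie near the background in both genotypes and are no result about the 9 as a group. The comparisons share libraries with those between genotypes, and each gene's values are those given by library above.

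Shmt1 made the largest change among the 9 with the medium. In Vps15KO cells it was 2.14-fold higher in EBSS than in basal medium (log2 difference 1.10 ± 0.08, adjusted p = 3.59e-09), and in WT cells it was 2.82-fold higher (1.49 ± 0.08, adjusted p = 4e-11). All EBSS libraries were at 743 normalized counts or more and all basal libraries at 417 or fewer. Mthfd1, which like Shmt1 acts in the cytosol, fell by 0.35 in Vps15KO cells (adjusted p = 0.000455) and by 0.30 in WT cells (adjusted p = 0.00138), both log2 differences with an SE of 0.07.

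The mitochondrial enzymes varied. Mthfd1l rose in EBSS by a log2 difference of 0.21 ± 0.07 in Vps15KO cells (adjusted p = 0.0201) and of 0.56 ± 0.07 in WT cells (adjusted p = 1.86e-06). In Vps15KO cells its call ended when any 1 of 4 libraries was left out (EBSS replicates 1 and 2, adjusted p = 0.0947 and 0.0579, and basal replicates 1 and 3, 0.0515 and 0.0775), after quantile normalization (0.0939), and after removal of trends with length and GC content (0.147). Mthfd2 rose by 0.38 ± 0.10 in Vps15KO cells (adjusted p = 0.00281, and 0.0541 with no filter on low values). In WT cells it differed by 0.20 ± 0.10, which was not called (adjusted p = 0.0832). Without WT basal replicate 2 it was called there too (0.29, adjusted p = 0.00535), likewise without WT basal replicate 3 (0.26, adjusted p = 0.042), while without WT basal replicate 1 the difference was 0.04 (adjusted p = 0.627). For Shmt2 the log2 differences were 0.14 ± 0.09 in Vps15KO cells (adjusted p = 0.186, interval -0.04 to 0.32) and -0.14 ± 0.09 in WT cells (adjusted p = 0.157, interval -0.32 to 0.04), neither of them called. In Vps15KO cells Shmt2 passed the threshold without WT basal replicate 2 (adjusted p = 0.0419), without both WT libraries that stood apart (0.0328), in a fit of only the groups compared (0.0265) and after removal of length and GC trends (0.23, adjusted p = 0.00434). In WT cells it was called lower after quantile normalization (-0.23, adjusted p = 0.0199) and without WT basal replicate 1 (-0.22, adjusted p = 0.0331). Aldh1l2 differed by 0.10 ± 0.07 in Vps15KO cells and by -0.02 ± 0.07 in WT cells, with adjusted p of 0.234 and 0.81, and intervals of -0.04 to 0.25 and -0.17 to 0.13. After removal of length and GC trends Aldh1l2 was called lower in EBSS in WT cells (-0.27, adjusted p = 0.000612).

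In the serine synthesis pathway Psat1 alone was called, and only in WT cells, where it fell by 0.17 ± 0.07 (adjusted p = 0.0373). That call ended without WT EBSS replicate 1 (adjusted p = 0.0525), without WT EBSS replicate 2 (0.236), without WT basal replicate 2 (0.127) and under other settings. In Vps15KO cells it differed by 0.07 ± 0.07 (adjusted p = 0.392). Phgdh differed by -0.08 ± 0.09 in Vps15KO (adjusted p = 0.477) and by 0.19 ± 0.09 in WT cells (adjusted p = 0.0813). Without WT basal replicate 2, its highest WT basal library, Phgdh was called higher in EBSS in WT cells (0.32, adjusted p = 0.000173), and without WT basal replicate 1 its difference was 0.08 (adjusted p = 0.426). Psph differed by 0.04 ± 0.08 in Vps15KO and by 0.01 ± 0.08 in WT cells (adjusted p = 0.729 and 0.955).

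**Figure D3:**
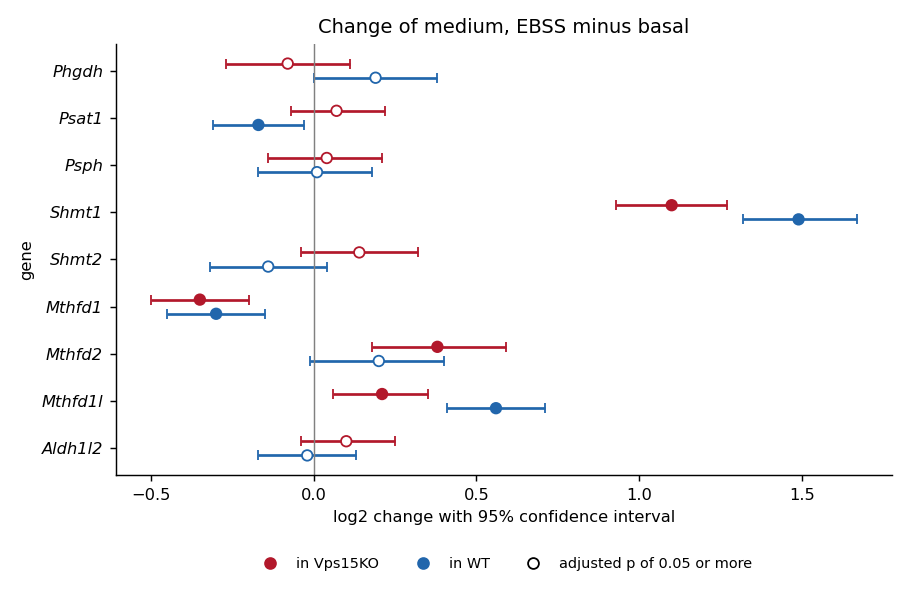
Log2 difference, EBSS minus basal medium, of each gene in Vps15KO and in WT cells, with 95% confidence intervals and open points for an adjusted p of 0.05 or more. Shmt1 is the farthest to the right in both genotypes (1.10 in Vps15KO and 1.49 in WT cells), Mthfd1 is left of 0 in both (-0.35 and -0.30), and most other genes lie near 0.

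Whether the effect of EBSS differed between genotypes was tested with the interaction term. Shmt1 and Mthfd1l responded less in Vps15KO than in WT cells, and no gene of the 9 was called as responding more. Of the 9 genes 2 were called lower and none higher, where 8.24% of the genes tested were called lower, 9.55% higher and 17.8% in either direction. For Shmt1 the difference of the log2 effects was -0.40 ± 0.12 (adjusted p = 0.0237), and for Mthfd1l it was -0.35 ± 0.10 (adjusted p = 0.0197). Both started from a higher basal level in Vps15KO cells. The Shmt1 call ended with either of 2 Vps15KO libraries left out (EBSS replicates 2 and 3, adjusted p = 0.0637 and 0.0699) or either of 2 WT libraries (EBSS replicates 1 and 2, 0.0679 and 0.0574), and the Mthfd1l call without Vps15KO EBSS replicate 3 (0.0616) or Vps15KO basal replicate 2 (0.0555). With no filter neither was called (adjusted p = 0.0961 for Shmt1 and 0.0528 for Mthfd1l), and without both WT libraries that stood apart Shmt1 was not (-0.28, adjusted p = 0.0563). Other settings changed this picture. Without WT basal replicate 1, Mthfd2, Shmt2 and Psat1 were called as responding more in Vps15KO cells (0.34, 0.36 and 0.29, adjusted p = 0.0215, 0.0373 and 0.0484), and without WT basal replicate 2 Phgdh was called as responding less (-0.40, adjusted p = 0.00161). Psat1 was also called as responding more without WT EBSS replicate 3 (0.30, adjusted p = 0.0462) and, with all libraries, after quantile normalization (0.35, adjusted p = 0.0138), with library weights (0.0336) and after removal of length and GC trends (0.049). Phgdh was called as responding less with library weights (-0.37, adjusted p = 0.00196), after removal of those trends (-0.38, adjusted p = 0.00716) and without both WT libraries that stood apart (-0.33, adjusted p = 0.00215). A replicate block within each medium called Shmt2 and Psat1 as responding more (adjusted p = 0.0321 and 0.0438) and Phgdh as responding less (0.0428). In the fit as first given the other 7 genes were called in neither direction, and the difference lay between -0.27 (Phgdh, interval -0.54 to 0) and 0.28 (Shmt2, interval 0.03 to 0.54, adjusted p = 0.121).

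Levels of cytosolic and mitochondrial counterparts were set against each other within each library, per kilobase, which removes the library's scaling. The balance of the hydroxymethyltransferases moved towards the cytosolic enzyme in EBSS and lay further to the mitochondrial enzyme in Vps15KO cells. Shmt2 over Shmt1 was 5.84, 6.46 and 7.42 in Vps15KO libraries in EBSS and 2.78, 2.75 and 3.57 in WT libraries in EBSS. In basal medium the ratio was 13.6, 13.5 and 12.5 in Vps15KO and 8.75, 12.9 and 8.82 in WT libraries. The genotypes overlapped in basal medium only, through WT basal replicate 2. With 3 libraries against 3 the exact two-sided permutation test cannot go below 0.1. Of 20 comparisons of 5 ratios, 17 reached that value without overlap (0.118 adjusted over the 20). Of single genes tested, 61.7% to 66.3% did not overlap in either direction, depending on the comparison, and no such share was worked out for ratios. Some of the 5 ratios share a gene, and this count is no result about the ratios as a group. Besides the ratios given here and below, the 5 held Mthfd2 over Mthfd1 and Aldh1l2 over Mthfd1. Not all 5 set cytosolic and mitochondrial counterparts against each other. Shmt2 over Shmt1 between genotypes in basal medium had an exact permutation p of 0.2.

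Mthfd1l over Mthfd1, the mitochondrial ligase over the cytosolic enzyme, was 1.38 ± 0.0559 in Vps15KO and 1.43 ± 0.00872 in WT cells in EBSS, with overlap (exact permutation p = 0.4). In basal medium it was 0.923 ± 0.0894 in Vps15KO and 0.765 ± 0.039 in WT cells, without overlap. The transcript of the mitochondrial ligase was thus above that of Mthfd1 per kilobase in all EBSS libraries, and below it in all basal libraries but Vps15KO replicate 2 (1.03). Mthfd2 has a paralogue of like activity, Mthfd2l, which was tested with the other folate genes and was paired with it here after its values had been seen. Mthfd2 over Mthfd2l was 27.9 ± 1.21 in Vps15KO and 6.51 ± 0.828 in WT cells in EBSS, and 16.5 ± 1.48 in Vps15KO and 5.43 ± 0.762 in WT cells in basal medium (SD, n = 3 each). The ratio was higher in Vps15KO cells in both media without overlap. Mthfd2l itself was lower there, with 205, 211 and 202 normalized counts in Vps15KO and 273, 327 and 336 in WT libraries in EBSS (log2 difference -0.54, adjusted p = 5.72e-05), and 261, 257 and 287 in Vps15KO and 299, 321 and 357 in WT libraries in basal medium (-0.25, adjusted p = 0.0226).

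**Figure D4:**
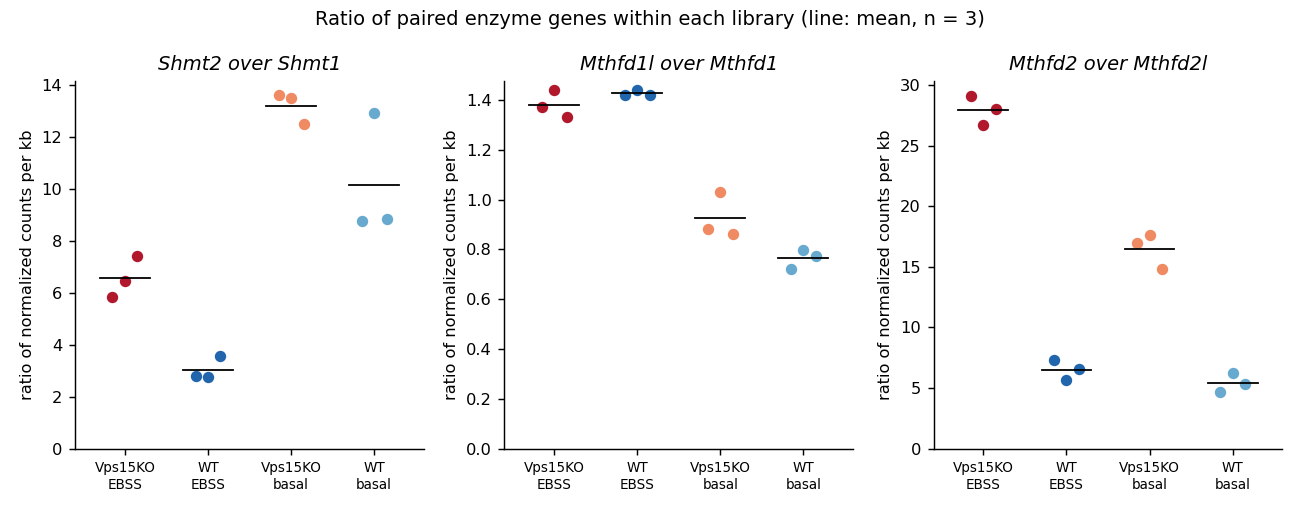
Ratio of normalized counts per kb of paired enzymes in each library, on a linear axis, with the group mean as a bar. Shmt2 over Shmt1 is lowest in WT cells in EBSS (2.75 to 3.57), Mthfd1l over Mthfd1 separates by medium, and Mthfd2 over Mthfd2l separates by genotype.

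Genes that border on these enzymes in metabolism were mixed in direction. Between genotypes 29.3% of all genes tested were called higher and 29.2% lower in basal medium (58.5% in all). In EBSS these shares were 29.4% and 27.8% (57.2% in all), and they stand beside the counts of each list below. Of 17 other folate cycle genes tested, those called in Vps15KO against WT cells in basal medium were 3 higher and 7 lower, with a median log2 difference of -0.18, and 4 were higher and 6 lower in EBSS, with a median of -0.03. Called in either direction were 58.8% of these genes in each medium, near the share of all genes tested. Among the folate cycle genes Sfxn1, a carrier of serine into mitochondria, was higher by 0.44 ± 0.07 in basal medium. Lower were Sfxn3, another sideroflexin (log2 difference -0.40 ± 0.06 in basal medium and -0.48 ± 0.06 in EBSS), and in EBSS Fpgs (-0.74 ± 0.07), which adds the glutamate tail that holds folates in the cell, and Ggh (-0.52 ± 0.07), which removes it.

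Genes of glycine cleavage and of serine or glycine use were split. Of 15 tested 6 were higher and 4 lower in basal medium (median -0.01), and 4 higher and 4 lower in EBSS (median -0.07). The shares called were 66.7% and 53.3%, beside 58.5% and 57.2% of all genes tested. Sardh, the mitochondrial sarcosine dehydrogenase that also loads folate, was lower (-0.93 ± 0.08 in basal medium and -0.90 ± 0.08 in EBSS), while Sptlc2, a subunit of the serine palmitoyltransferase of sphingolipid synthesis, was higher by 0.63 ± 0.06 and 0.57 ± 0.06. Of 14 genes of the methionine cycle and transsulfuration 8 were higher and 1 lower in basal medium (median 0.25), and 6 were higher and 3 lower in EBSS (median 0.14). Of these 14 genes 64.3% were called in each medium. Cth, which makes cysteine from serine-derived cystathionine, was higher by 1.41 ± 0.08 in basal medium and by 1.31 ± 0.08 in EBSS. Mat2a, which makes S-adenosylmethionine, rose with EBSS by 1.39 ± 0.08 in Vps15KO and by 1.75 ± 0.08 in WT cells.

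Carriers of serine and glycine had 5 higher and 2 lower of 7 tested between genotypes in basal medium (median 0.46) and 5 higher and 1 lower in EBSS (median 0.35). Slc1a5, a carrier of neutral amino acids including serine, was higher in Vps15KO cells by 1.39 ± 0.08 in EBSS and 1.07 ± 0.08 in basal medium. Slc38a2, which takes up small neutral amino acids, rose with EBSS by 1.73 ± 0.07 in Vps15KO and by 1.25 ± 0.07 in WT cells. With EBSS 4 of the 7 carriers were called higher in Vps15KO cells. In WT cells 6 were called higher and 1 lower. Of all genes tested 25.9% and 31.4% were called higher in the same comparisons.

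Of 30 other genes of the ATF4 response tested, 28 were higher in Vps15KO cells and none lower in basal medium (median log2 difference 0.95), and 28 were higher and none lower in EBSS (median 0.97). These medians are close to those of the 9 enzymes, 0.98 and 1.14. With EBSS, 18 were higher and 4 lower in Vps15KO cells (median 0.34), and 16 were higher and 6 lower in WT cells (median 0.26). Of all genes tested 25.9% and 31.4% were called higher with EBSS, and 26.1% and 31.3% lower. Sesn2, a leucine sensor, rose with EBSS by 1.78 ± 0.08 in Vps15KO cells, and Slc7a11, the cystine carrier, by 1.48 ± 0.11 in WT cells. Atf4 itself was at 28588 ± 257 normalized counts in Vps15KO and 10874 ± 1416 in WT cells in EBSS, and at 15318 ± 865 in Vps15KO and 9093 ± 1327 in WT cells in basal medium (SD, n = 3 each). Its log2 difference between genotypes was 1.40 ± 0.09 in EBSS and 0.76 ± 0.09 in basal medium, and the interaction was 0.64 ± 0.13 (adjusted p = 0.00256). Atf4 is itself one of the 30 genes. In the same fit 8 of the 30 genes had a called positive interaction and 3 a negative one, beside 9.55% and 8.24% of all genes tested. None of the 9 enzymes had a called positive interaction there, and Shmt1 and Mthfd1l had a negative one. Some other settings called Psat1, Shmt2 or Mthfd2 as positive. The part of ATF4 in the levels of the 9 enzymes was not tested.

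Among 12 nuclear regulators tested, a list that also holds Atf4, 7 were higher and 3 lower in Vps15KO cells in basal medium, and 7 were higher and none lower in EBSS. Myc, a growth regulator known to act on serine and folate genes, was at 3345 ± 245 normalized counts in Vps15KO and 1101 ± 80.5 in WT cells in EBSS, and at 2617 ± 117 in Vps15KO and 1124 ± 41.1 in WT cells in basal medium. Its log2 differences were 1.58 ± 0.07 and 1.20 ± 0.07. DNA replication needs the thymidylate and purines that folate carbon supplies, and of 20 S phase genes 12 were higher and 3 lower in basal medium (median 0.40), and 10 were higher and 3 lower in EBSS (median 0.22). Called in either direction were 75% and 65% of these 20 genes, beside 58.5% and 57.2% of all genes tested. Mcm2, a subunit of the replicative helicase, was higher by 1.09 ± 0.06 in basal medium and 0.87 ± 0.06 in EBSS. The part of cycling cells in the levels of the 9 enzymes was not tested.

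**Figure D5:**
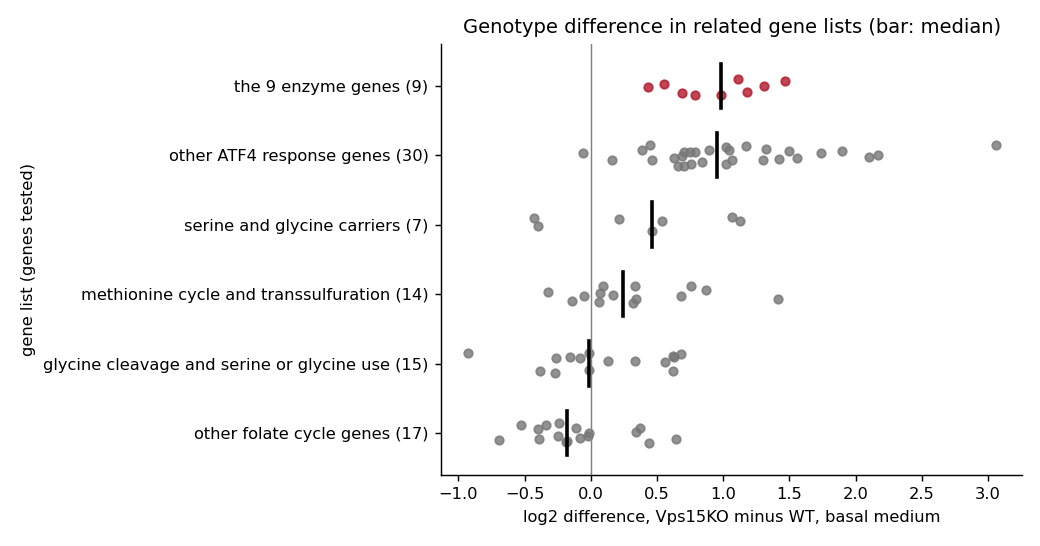
Log2 difference, Vps15KO minus WT, in basal medium, of every tested gene of 6 lists, a point per gene with the list median as a bar. The 9 enzymes (median 0.98) cover the middle of the range of the other ATF4 response genes (median 0.95), while the other folate cycle genes lie on both sides of 0 (median -0.18).

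Profiles over the 12 libraries were compared by the root mean square difference of deposited values, each gene centred on its own mean, among 12399 genes. Within the 9, the closest pairs were Psat1 with Shmt2 (0.114), Psph with Shmt2 (0.115) and Psat1 with Psph (0.141), in log2 units. The genes outside the 9 closest to Psat1 were Snhg16 (0.076), Got1 (0.097) and Lonp1 (0.099), and Got1, the cytosolic aspartate aminotransferase, was also near Shmt2 (0.1). Closest to Mthfd2 were Vldlr (0.11), Cth (0.123) and Myc (0.135). For Aldh1l2 they were Tbc1d31 (0.1), Slc11a2 (0.102) and Nrcam (0.107), and for Psph they were Eif2s2 (0.097), Akna (0.099) and Snhg16 (0.102). Phgdh was nearest to Uap1l1 (0.081), Tnxb (0.087) and Slc2a6 (0.099).

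Shmt1, Mthfd1l and Mthfd1, which were called with the medium in both genotypes and also between genotypes in basal medium, had other neighbours. Shmt1 was nearest to Mospd1 (0.077), Brd1 (0.095) and Jmy (0.108), and Mthfd1l to Plin2 (0.077), Bid (0.087) and Senp2 (0.088). Among the nearest to Mthfd1 were Ppa1 (0.069) and Parp2 (0.072). The median distance of all genes from each of the 9 lay between 0.368 and 0.802. These distances describe 12 libraries of 4 groups and carry no test.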

How the data were processed

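Poly-A RNA of 12 libraries was turned into strand-marked (dUTP) libraries and read from both ends on a DNBSEQ-G400, per the labels' protocols. The submitters' processing notes name the build mm10, limma, DESeq2, featureCounts and STAR 2.7.10b, with no role for each, and whether strand was used in counting is not given in the sources used here. The deposited table holds 32721 genes in log2 units, variance-stabilized by the authors. A count of 0 stands at 3.83, the floor of the table. From it the values were turned back into reads, which came out whole within 0.001 for 100% of values with size factors of 0.9447 to 1.0241. Normalized counts are those reads divided by the size factor. A count of 0 allows up to 3 reads for counting error alone.

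The 14279 genes whose mean lay 1 or more over the floor were tested. Group means were fitted to the deposited log2 values with limma 3.58.1 in R 4.3.3 (trended empirical Bayes, 8 residual and 10.2 prior degrees of freedom). The 5 comparisons were Vps15KO against WT in each medium, EBSS against basal medium in each genotype, and the interaction. P-values are two-sided and adjusted by Benjamini and Hochberg over all genes tested within a comparison, and called under 0.05. Errors of log2 differences are standard errors of the fit. Ratios within libraries were compared with exact permutation tests. Levels per kilobase used GENCODE exon lengths, and positions and promoters came from RefSeq. Depth, 21278921 to 21698584 reads in genes, differed little between libraries.

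The members and gene lists were chosen with earlier results of these data known. Named are the 9 genes, Pik3r4, up to 4 called genes with the smallest p of each list and comparison, and the 3 genes nearest to each member in profile. A few genes that this rule names are not reported here. Mthfd2l, Asns and Trib3 fall outside this rule in some places and were named after their values were seen. Agxt, Bhmt, Slc7a10 and Mycn were not found by symbol and were not analysed here. Alternatives were 3 replicate blocks, no filter and a stricter one, library weights, a fit without the variance trend, quantile normalization, equal medians, voom on the reads worked back, log2 of the normalized count plus 1, a fit to only the groups compared, adjusted p under 0.01, removal of trends with length and GC content, a fit without both of the WT libraries that stand apart, and each library left out in turn.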

Additional observations from a re-analysis of the deposited data

Results flagged for a closer look

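The effect of EBSS differed between genotypes, by the test of the difference itself, for 2 of the 9 enzymes. For Shmt1 the difference of the log2 effects, Vps15KO minus WT, was -0.40 (limma, adjusted p = 0.0237), with a rise in EBSS of 1.10 in Vps15KO and 1.49 in WT cells. For Mthfd1l it was -0.35 (adjusted p = 0.0197), with a rise of 0.21 in Vps15KO and 0.56 in WT cells. Across the alternatives the values ran from -0.47 to -0.28 for Shmt1 and from -0.40 to -0.29 for Mthfd1l. Of all genes tested, 17.8% had such a difference. A count of 2 of 9 is near that share and is no result about the 9 as a group. With no filter on low values neither gene was called (limma, adjusted p = 0.0961 for Shmt1 and 0.0528 for Mthfd1l). Each call also ended when some single libraries were left out.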

How the results depend on the processing

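In every setting tried 9 of the 9 genes were called higher in Vps15KO cells in basal medium, and 8 or 9 in EBSS, where Shmt1 was called in 2 settings. Over 27 alternatives, 12 of which leave out 1 library, 1110 of 1170 values of single genes kept their side of the threshold, 32 passed it and 28 no longer did. The sign changed in 16 values, of which 0 were called in either setting. Voom on the worked-back reads gave the same member counts, with 4169 genes higher and 4167 lower in basal medium.

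In WT cells 4 members were higher in EBSS with library weights, without both of the WT libraries that stand apart and with length and GC trends removed (then with 3 lower). There 1 was lower without the filter, without the variance trend, in a fit of only the groups compared, at adjusted p under 0.01, without both of those libraries and with the replicate block within a genotype. For the interaction 0 members were called lower without the filter and at adjusted p under 0.01, and 1 was called higher after quantile normalization, with library weights and with length and GC trends removed. Genes called in the interaction, 1363 higher and 1177 lower, were 827 and 690 without the filter, 707 and 520 at adjusted p under 0.01, and 1805 lower with library weights. With 1 library left out, members called higher and lower ran from 2 to 4 and from 1 to 3 for EBSS in WT cells, from 2 to 4 and at 1 for EBSS in Vps15KO cells, and from 0 to 3 each for the interaction. The cause was not tested.

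Replicate numbers gave no sure pairing. Between genotypes, residuals of same-number libraries correlated by 0.039 to 0.124 in EBSS and 0.083 to 0.26 in basal medium. Those of different numbers correlated by -0.111 to -0.012 and by -0.212 to 0.106. Between media, same-number residuals correlated by -0.073 to 0.012 in Vps15KO and -0.155 to -0.042 in WT cells. Different numbers gave -0.074 to 0.079 and -0.04 to 0.142. A pairing of the genotypes within a medium may thus exist, and the main fit holds none. With a replicate block over all groups the member counts were 9, 8, 3 higher and 1 lower, 2 higher and 2 lower, and 2 lower in the interaction. The block within a medium called 2 members higher and 3 lower in the interaction. With 3 libraries per group, small differences may be missed.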
